A study of Mus musculus with 4 samples.

Results

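The Myc and Max network factors are a family of transcription factors, and 8 of its genes (Myc, Max, Mlx, Mnt, Mxd1, Mxd4, Mxi1 and Mga) were followed here by gene name among the 30694 genes and 4669 open reading frames (ORFs) of a ribosome profiling series. All 8 were in the gene table, and 4 of them (Myc, Mnt, Mxi1 and Mlx) had an ORF in the ORF table, with 1 ORF each. The cells were mouse female germline stem cells (FGSCs), an ovarian culture grown in vitro. In 2 libraries (shGm26917) a short hairpin RNA delivered by lentivirus targeted the long noncoding RNA Gm26917, and 2 further libraries (shNC) came from cells with a control hairpin. Infected cells were selected with a drug, cells of every library were treated with cycloheximide before collection, and the sources used here do not say which of several Gm26917 hairpins was used. The comparison asks whether knockdown of Gm26917 changed how heavily the network's mRNAs were occupied by ribosomes.

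Myc drives genes of cell growth and division, and it binds DNA only as a pair with Max. Mnt, Mxd1, Mxd4 and Mxi1 compete with Myc for Max, sit on the same DNA site (the E-box) and repress, through the Sin3 and histone deacetylase corepressors. Mga, a very large protein with a T-box as well as the Max-binding domain, joins Max in a Polycomb complex (PRC1.6) that in mouse embryonic stem cells holds meiotic genes silent. Mlx is the Max-like partner of the glucose-sensing Mondo factors and can also pair with some repressors. Both the mRNA and the protein of Myc are short-lived.

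The E-box that these proteins share, CACGTG, was looked for in the RefSeq promoter windows of the genes (250 bases before to 50 after the start site, GRCm38.p6, so 300 bases), because it is the site where the proteins compete. It reads alike on both strands. Of the members, 7 matched a window by symbol, and 4 of the 7 (Max, Mnt, Mxd4 and Mlx) held it in a window, against 8.09% of all 27025 genes (7.15% of all 32851 windows). The 30 bases around each E-box are given 5′ to 3′ on the strand of the gene, with the E-box in capitals.
Max (chr12:76962234-76962263, minus strand, E-box starting at -3 from the start site): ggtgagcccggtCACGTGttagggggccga
Mlx (chr11:101087238-101087267, plus strand, E-box at -40): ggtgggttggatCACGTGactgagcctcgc
Mnt (chr11:74830789-74830818, plus strand, E-box at -123): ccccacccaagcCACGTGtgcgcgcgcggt
Mxd4 (chr5:34187912-34187941, minus strand, E-box at -219): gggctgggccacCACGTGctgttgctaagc
No window of Mxd1, Mga or Mxi1 contained these 6 letters, and Mxi1 had 3 windows. Of the commonly cited Myc target genes described below, 5 of the 13 with a window held the E-box (Nme1, Ldha, Cdk4, Eif4e and Apex1). A match describes the letters of the window, and binding was not measured in these libraries.

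The libraries were uneven, and the values touch every result below. The ORF table gave a value above 0 for 372 and 4250 of the 4669 ORFs in shGm26917 replicates 1 and 2, against 4211 and 3421 in shNC replicates 1 and 2, which, with the smallest value of a library taken as 1 read, corresponded to 157914 and 1753036 reads against 1618481 and 1049143 reads. Across the 10115 genes with a translation efficiency (TE, normalized footprints over normalized RNA) above 0 in all 4 libraries, correlations of log2 TE were 0.772 to 0.783 between shGm26917 replicate 1 and the others, and 0.921 to 0.935 among the other 3 libraries, where genes are not independent replicates. The median TE of those genes was 0.992 and 1.00 in shGm26917 and 0.993 and 0.990 in shNC. As footprints and RNA were each normalized, a change common to all genes may not show in TE. The TE changes below are therefore relative to the other genes. Gm26917 had a TE of 113 and 8.62 in shGm26917, against 17.0 and 23.8 in shNC, and as a ratio this does not measure the amount of the RNA, so the knockdown is not checked by it. The labels call the cells germ stem cells. For its FGSCs the study reports RT-PCR of Oct4, Ddx4, Fragilis and Blimp1, and staining of the DDX4 and OCT4 proteins. Of 6 germline markers, only Ifitm3 had a TE above 0 in all libraries, while Ddx4, Dazl, Dppa3 and Pou5f1 were blank or listed at 0 in each. Prdm1 was listed at 0 in both shGm26917 libraries, against 0.821 and 1.61 in shNC. A blank or 0 ratio does not measure RNA or protein, so germline expression was not tested by it. All 5 stromal markers (collagens, Pdgfra and Dcn) and 4 of 5 macrophage markers had a TE above 0 in all 4 libraries. The same held for 0 of 4 granulosa markers and 0 of 3 endothelial markers. The summed ORF values of the stromal markers were 677 and 2984 in shGm26917 and 3921 and 4226 in shNC. The 677 of shGm26917 replicate 1 came from Col1a1 alone. Of the macrophage markers 2 had an ORF, with sums of 0 and 1436 against 1074 and 772, of which Adgre1 alone gave 0 and 1423 against 1072 and 770. The part of these cell types in the results was not tested. In such bulk samples fewer cells of a type and less RNA per cell cannot be told apart.

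All 8 network genes had a TE in every library, and none passed the test for a changed TE. Myc kept nearly the same ratio in all 4 libraries, and Max and Mxi1 were the members with a negative fitted change. Both shGm26917 values lay above both shNC values for 3 repressor genes (Mxd1, Mxd4 and Mnt), for Mnt by 1.2599 over 1.2589. The same held for 16.1% of all genes tested, and 14.8% were separated on the lower side. limma, a linear model with a spread shared across genes, called 0 of the 10115 genes (0%) when its p-values were adjusted by Benjamini-Hochberg and held to 0.05. Before adjustment 237 genes (2.34%) lay under 0.05, none of them a member. The adjusted p of the members ran from 0.966 to 0.996 and the unadjusted p from 0.167 to 0.962. The fitted log2 change was above 0 for 6 of the 8, with a median of 0.15 over the members, against 5062 of 10115 above 0 and a median of 0.00095 over all genes tested.

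**Figure D1:**
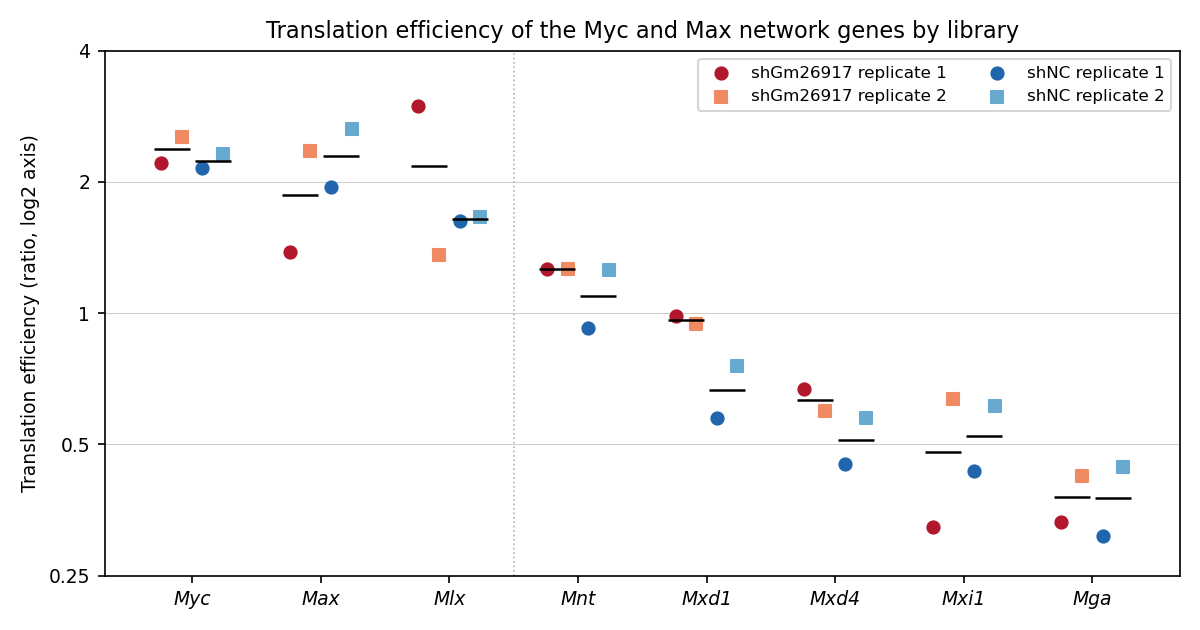
Translation efficiency (ratio of footprints to RNA, log2 axis) of the 8 network genes in each library, red and orange points for shGm26917, dark and light blue for shNC, with a bar at each group mean. Myc, Max and Mlx, left of the dotted line, lie above Mnt, Mxd1, Mxd4, Mxi1 and Mga in each library, and the shGm26917 points lie above both shNC points for Mnt, Mxd1 and Mxd4.

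Myc (chr15:61985391-61990374, plus strand, mm10) had a TE of 2.21 and 2.54 in shGm26917, against 2.15 and 2.32 in shNC. The groups overlapped, and the fitted log2 difference came to 0.08 ± 0.31 (SE, 2 libraries a group; adjusted p = 0.979 by limma), with a 95% interval from -0.75 to 0.91. Across the 4 libraries the highest Myc ratio was 1.18 times the lowest, and only 3.59% of all genes tested varied less by that measure, where the median gene varied 1.89-fold. Within each library Myc stood at the 75.9th and 83.4th percentile of TE in shGm26917, against the 81.3rd and 80.9th in shNC, among genes with a TE above 0 there. The genes with the pattern closest to Myc over the 4 libraries, by the Euclidean distance of log2 TE centred on each gene's mean, were Smarcc1, a subunit of the BAF chromatin remodeller (distance 0.016), Stau1, which binds double-stranded RNA (0.037), and Sec23b, a coat protein of secretory vesicles (0.039).

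Max, the obligate partner of Myc (chr12:76937269-76962201, minus strand), had a TE of 1.38 and 2.35 in shGm26917, against 1.95 and 2.65 in shNC. The lowest of the 4 was shGm26917 replicate 1, and the groups overlapped. The fitted log2 difference came to -0.33 ± 0.42 (SE, 2 libraries a group; adjusted p = 0.966 by limma), with a 95% interval from -1.45 to 0.78. It was 0.048 without shGm26917 replicate 1.

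Mlx, the Max-like factor (chr11:101087277-101092207, plus strand), showed the widest spread of the family. Its TE was 2.98 and 1.36 in shGm26917, on either side of the 1.63 and 1.66 of shNC. The fitted log2 difference of 0.29 ± 0.48 (SE, 2 libraries a group; adjusted p = 0.966 by limma) turned to -0.27 without shGm26917 replicate 1 and was 0.86 without replicate 2. The ratio between the highest and lowest library was 2.19 for Mlx, and 62.1% of the genes tested varied less.

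Among the repressors, Mxd1 (chr6:86647042-86669161, minus strand), a factor best known from differentiating cells that leave the cell cycle, had the largest fitted change of the family. Its TE was 0.985 and 0.943 in shGm26917, against 0.576 and 0.759 in shNC. Both shGm26917 values lay above both shNC values, and the mean was 0.964 ± 0.0300 against 0.667 ± 0.129 (SD, n = 2 each). The fitted log2 difference came to 0.54 ± 0.33 (SE, 2 libraries a group; adjusted p = 0.966 by limma), with a 95% interval from -0.33 to 1.42. Of all genes tested, 86.3% had a lower change. It lay between 0.35 (without shNC replicate 1) and 0.74 (without shNC replicate 2) with 1 library left out.

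Mxd4, a relative of Mxd1 (chr5:34173883-34187720, minus strand), had a TE of 0.669 and 0.596 in shGm26917, against 0.452 and 0.574 in shNC. The groups did not overlap, by a margin of 0.596 over 0.574, and the fitted log2 difference came to 0.31 ± 0.33 (SE, 2 libraries a group; adjusted p = 0.966 by limma). Without shNC replicate 1 it was 0.14.

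Mnt, the most widely expressed of the repressors (chr11:74830920-74845725, plus strand), had a TE of 1.2599 and 1.2600 in shGm26917, against 0.927 and 1.2589 in shNC. Of the shNC libraries only replicate 1 stood clearly below the others. The fitted log2 difference of 0.22 ± 0.34 (SE, 2 libraries a group; adjusted p = 0.966 by limma) was 0.0013 without that library.

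Members with no overlap between the groups were thus 3 of 8 on the higher side and 0 of 8 on the lower side, where 16.1% and 14.8% of all genes tested had no overlap in these directions. The value of shNC replicate 1 was below that of shNC replicate 2 in 8 of 8 members, against 50.9% of all genes tested, and the median gap between those replicates was 0.42 on the log2 scale for the members, against 0.26 for all genes. In shGm26917 the median gap was 0.28 for the members, against 0.65 for all genes.

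Mxi1, a further Myc antagonist (chr19:53310518-53375810, plus strand), had a TE of 0.323 and 0.636 in shGm26917, around the 0.435 and 0.613 of shNC. Its fitted log2 difference came to -0.19 ± 0.47 (SE, 2 libraries a group; adjusted p = 0.977 by limma), and it was 0.30 without shGm26917 replicate 1 and 0.060 without shNC replicate 2. Mga (chr2:119897228-119969581, plus strand), the Polycomb partner, had a TE of 0.332 and 0.424 in shGm26917 and 0.308 and 0.445 in shNC, with a fitted log2 difference of 0.019 ± 0.37 (SE, 2 libraries a group; adjusted p = 0.996 by limma). In both groups the replicates of these 2 genes differed by more than the group means.

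**Figure D2:**
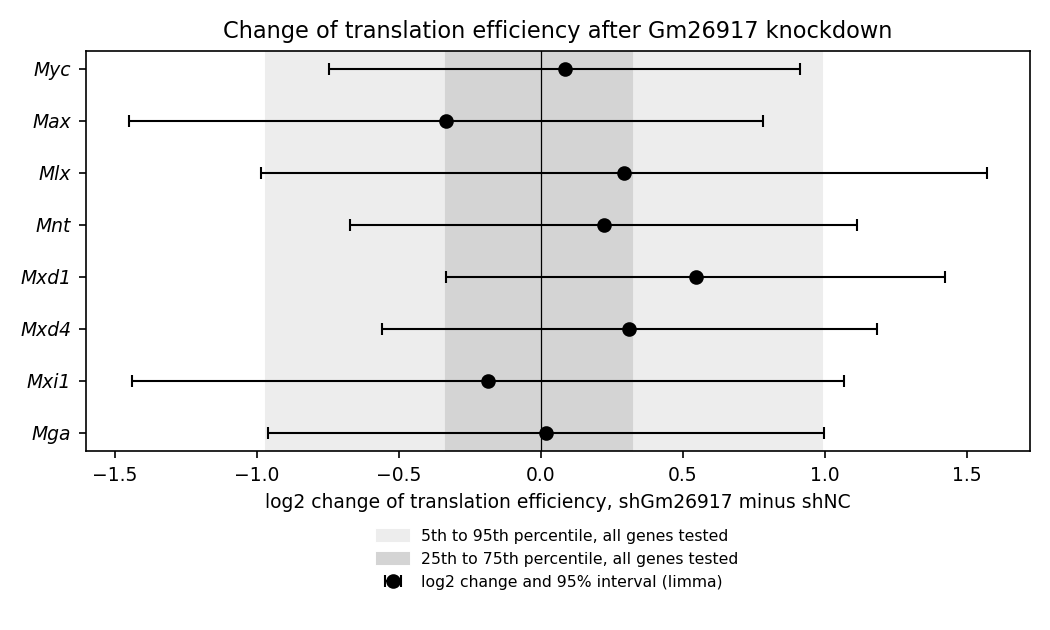
Fitted log2 change of translation efficiency (shGm26917 minus shNC) of the 8 genes with its 95% interval from limma, over grey bands from the 5th to the 95th and from the 25th to the 75th percentile of the 10115 genes tested. Each interval includes 0, and the points run from -0.33 for Max to 0.54 for Mxd1.

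In shNC, mean TE fell in the order Max (2.30 ± 0.491), Myc (2.24 ± 0.123), Mlx (1.65 ± 0.0222), Mnt (1.09 ± 0.235), Mxd1 (0.667 ± 0.129), Mxi1 (0.524 ± 0.126), Mxd4 (0.513 ± 0.0862) and Mga (0.377 ± 0.0965; SD, n = 2 each). Of the neighbours in that order, Max and Myc, Mxd1 and Mxi1, and Mxi1 and Mxd4 overlapped in their single values, while Mxd4 and Mga were apart by a margin of 0.452 over 0.445. In shGm26917 the single values of Myc (mean 2.38 ± 0.235), Mlx (2.17 ± 1.15) and Max (1.87 ± 0.685; SD, n = 2 each) overlapped. Mnt and Mxd1 held the fourth and the fifth place in each of the 4 libraries. Myc, Max and Mlx lay above the 5 other genes in each library: the lowest of these 3 had a TE of 1.38 and 1.36 in shGm26917 and 1.63 and 1.66 in shNC, and the highest of the other 5, which was Mnt each time, 1.26 and 1.26 against 0.927 and 1.26. TE is a ratio over the RNA of the same gene, and whether footprints and RNA were counted over the same stretch of each gene is not known. Mga or Mxi1 was lowest in each library, at the 14.4th and 21.8th percentile in shGm26917 and the 13.9th and 21.2nd in shNC.

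Ratios between members within a library do not depend on the scale of that library. Over the 28 pairs, 10 ratios had no overlap between the groups, and 6 of these involved Mxd1 and 5 Max, the pair of Max and Mxd1 counting under both. The share over all pairs of tested genes was not worked out, so the count of 10 is not a result about the members. The TE of Max over that of Mxd1 was 1.40 and 2.49 in shGm26917, against 3.39 and 3.49 in shNC. Max over Mnt was 1.10 and 1.87 against 2.11 and 2.10, and Max over Mxd4 was 2.07 and 3.94 against 4.32 and 4.61. The ratio of Max was also lower in shGm26917 to Mxi1 (4.28 and 3.69 against 4.49 and 4.32) and to Mga (4.16 and 5.54 against 6.33 and 5.95), so that Max stood lower in shGm26917 relative to each of the 5 genes of the lower tier, and overlapped relative to Myc and Mlx. Of the ratios of Max to all 10114 other genes tested, 17.4% had no overlap on the lower side and 5.39% on the higher side. Myc over Mxd1 was 2.24 and 2.70 in shGm26917 and 3.74 and 3.06 in shNC, the only pair with Myc, of 7, in which the groups did not overlap, where 8.95% of the ratios of Myc to all other genes had no overlap on the lower side and 23.2% on the higher side. Mxd1 was higher in shGm26917 relative to 6 of the 7 other members, and relative to 50.9% of all other genes tested (lower relative to 1.68%), so the count for the members is to be read against a background that is itself high. These ratios share members, were examined without a test and are given as descriptions.

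**Figure D3:**
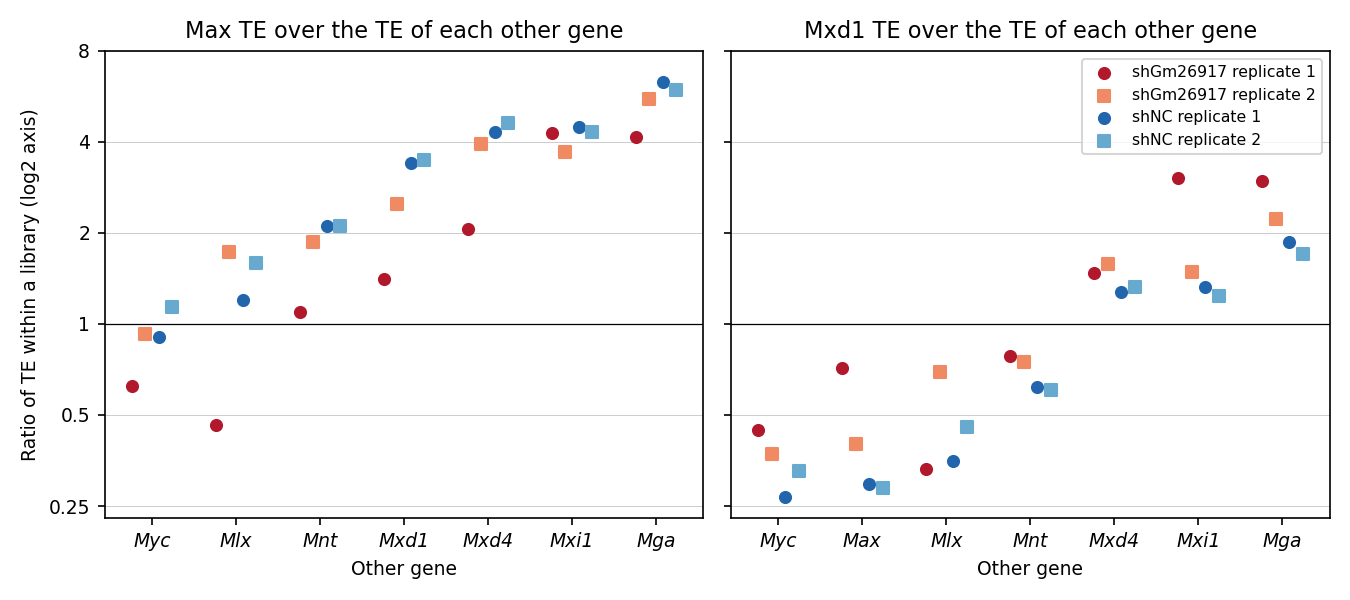
Ratio of the TE of Max (left) and of Mxd1 (right) to the TE of each other member within a library (log2 axis), red and orange points for shGm26917 and blue points for shNC. Max has both shGm26917 points below both shNC points for 5 of 7 genes, and Mxd1 has both above for 6 of 7.

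The ORF table measures footprints on a single reading frame, as reads divided by a size factor of the library, and is not divided by RNA. Its 4 member ORFs were annotated coding sequences, and each was listed at 0 in shGm26917 replicate 1, although all 4 genes had a TE above 0 in that library. Myc, for example, had 0 there beside a TE of 2.21. This pattern was common: 4297 ORFs were listed at 0 in that library and for 4077 of them (94.9%) the gene had a TE above 0 in it. The value 0 is therefore given as listed, and no ratio is formed with it. The fits on log2(value + 1) with all libraries include it, so the size of their log2 change for these ORFs rests on it. Without that library the log2 change turned from -4.85 to 0.80 for Myc and from -1.01 to 0.80 for Mlx. It kept its sign for Mnt (-3.78 and -0.11) and for Mxi1 (2.13 and 5.52).

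The Myc ORF (chr15:61987522-61989908, 439 codons) had values of 0 and 2517 in shGm26917, against 1394 and 1501 in shNC. In whole reads these were 0 and 3331, against 1765 and 1288. The single library with a value in shGm26917 thus exceeded both shNC libraries. Of the 117 ORFs with a value of at least 1394 in the other 3 libraries, 61 (52.1%) were listed at 0 in shGm26917 replicate 1, so Myc was not alone in this among heavily occupied ORFs. The value of shGm26917 replicate 2 was 1.74 times the shNC mean, above 93.1% of the 2575 ORFs with a value above 0 in these 3 libraries (whose median was 0.975), while the TE of Myc in that library was 2.54 against 2.15 and 2.32 in shNC. The fit on log2(value + 1) gave an adjusted p of 0.836 by limma. Without shGm26917 replicate 1 the log2 change was 0.80 ± 0.12 (SE; limma unadjusted p = 0.0148 and adjusted p = 0.789, with 0 of 4669 ORFs called). Here the spread of the ORF itself comes from the 2 shNC libraries alone, and limma moderates it with the spread of the other ORFs. The lone shGm26917 library is assumed to vary like the shNC libraries. Without replicate 2 the listed 0 stands alone in its group, and limma's adjusted p of 0.000482 in the lower direction, among 1934 calls in that direction, is fixed by that 0 and is no evidence about Myc.

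The Mnt ORF (chr11:74831329-74843320, 591 codons) had values of 0 and 161 in shGm26917, against 163 and 186 in shNC, or 0 and 213 reads against 206 and 160 reads. Apart from the listed 0, the 3 libraries differed little. Among 1142 ORFs at least as high as 161 in those 3 libraries, 948 were listed at 0 in shGm26917 replicate 1. limma's adjusted p was 0.836 with all libraries and 0.887 without that library, and 0.00148 in the lower direction without shGm26917 replicate 2, where it is again fixed by the listed 0.

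The Mxi1 ORF (chr19:53310700-53371736, 295 codons) had 0 and 109 in shGm26917, against 4.74 and 0 in shNC, or 0 and 144 reads against 6 and 0 reads. The reads thus came almost wholly from shGm26917 replicate 2, and limma's adjusted p was 0.897. Its first codon lies 194 bases past the most upstream of the 3 RefSeq start sites of Mxi1 and before both of the others, so only the upstream start site can give it. The Mlx ORF (chr11:101087326-101091165, 298 codons) rested on 0 and 15 reads in shGm26917 and 10 and 4 reads in shNC, too few to compare (limma adjusted p = 0.992).

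**Figure D4:**
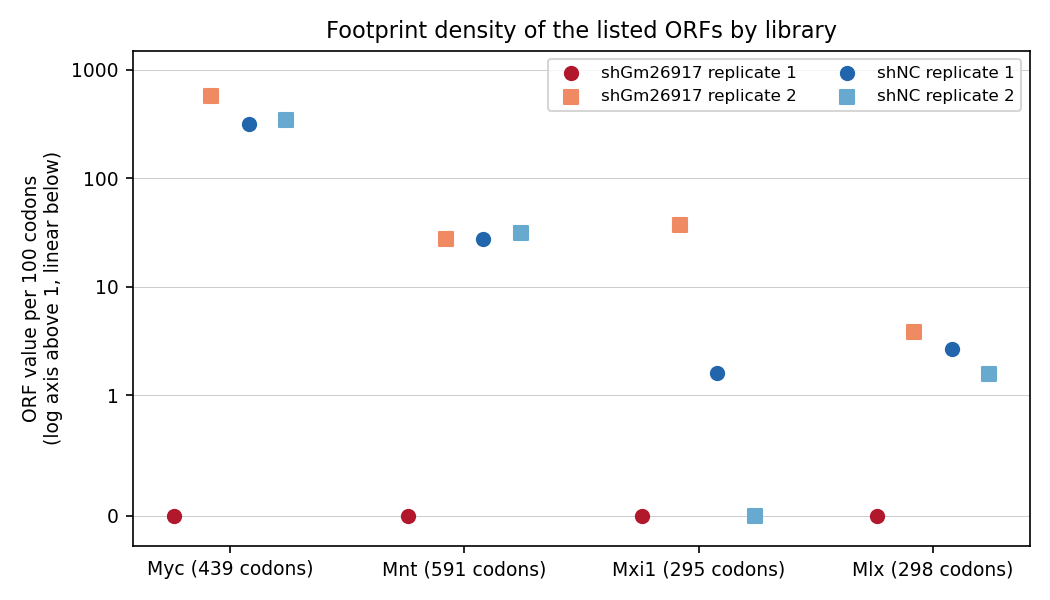
ORF value per 100 codons (log axis above 1, linear below) of the 4 listed member ORFs, red and orange points for shGm26917 and blue points for shNC. All 4 are at 0 in shGm26917 replicate 1, and the Myc ORF lies above the other 3 in the remaining libraries.

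Per length, the Myc ORF was by far the most occupied. It had 573 per 100 codons in shGm26917 replicate 2, against 318 and 342 in shNC, which placed it at the 96.2nd percentile of listed ORFs in that library and at the 93.1st and the 93rd in shNC. The Mnt ORF had 27.2 per 100 codons in shGm26917 replicate 2 and 27.5 and 31.6 in shNC, near the middle of the listed ORFs (53.6th percentile, against 52.9th and 50.6th). The Myc density was 21.1 times the Mnt density in shGm26917 replicate 2 and 11.5 and 10.8 times in shNC. The Mlx ORF had 3.80 in shGm26917 replicate 2, against 2.65 and 1.56 in shNC. These values are low beside the high TE of Mlx, but they cover only its listed ORF. Whether the same footprints entered the TE of Mlx is not known. Over all ORFs limma called 0 of 4669 (0%), with 346 at an unadjusted p under 0.05 (7.41%) and none of them a member. At a fold of at least 1.5 as well, 0.171% were higher and 7.2% lower, again with no member. The share with no overlap was 1.73% on the higher and 27.3% on the lower side, and 0 of the 4 member ORFs were among these on the higher side and 1 (Mnt) on the lower side, by 161 against 163 and through the listed 0.

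Genes that work with the network were read from 7 lists of 61 genes, of which 54 had a TE above 0 in all libraries. None of the 54 was called by limma, and for 1 (Hdac1) the fold was at least 1.5 and the unadjusted p at most 0.05, in the higher direction, where 1.46% of all genes did (0.88% in the lower direction). In the other Max network genes, Mxd3, a repressor of dividing cells, had a TE of 8.76 and 4.83 in shGm26917 and 5.20 and 3.07 in shNC, and Mlxip, the Mondo partner of Mlx, 0.376 and 0.131 against 0.196 and 0.175. Mycl had 0 and 0.178 in shGm26917 and 2.63 and 0.549 in shNC, Mlxipl was listed at 0 in 3 libraries and Mycn was blank in 3.

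The corepressors that Mnt and the Mxd proteins recruit held the largest fitted change among the 54 genes. Hdac1, a histone deacetylase, had a TE of 0.346 and 0.103 in shGm26917, against 0.0432 and 0.0561 in shNC. The groups did not overlap, and the log2 change was 1.94 (limma unadjusted p = 0.0377, adjusted p = 0.966). Its partner Hdac2 had 1.00 and 0.922 against 0.680 and 0.806, and the scaffold Sin3a 0.968 and 1.47 against 1.42 and 1.57. Over the 6 genes the median log2 change was 0.052, with 3 above 0 and 3 below.

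Of 10 coactivators and chromatin partners of Myc, all were tested and their median log2 change was 0.015, with 5 above 0. The acetyltransferase Kat5 had a TE of 1.40 and 1.08 in shGm26917, against 0.848 and 0.909 in shNC, and the helicase Ruvbl2 3.42 and 3.45 against 2.54 and 2.68. The groups did not overlap for these 2, with log2 changes of 0.49 and 0.40 (limma adjusted p = 0.966 for each). Wdr5, which anchors Myc on chromatin, had 0.579 and 0.882 against 0.718 and 0.956.

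Of the genes of Myc turnover, the stabilising kinase Aurka had 0.680 and 1.64 in shGm26917 and 2.20 and 2.03 in shNC without overlap (limma adjusted p = 0.966). Fbxl14, a ubiquitin ligase subunit, had 0.0561 and 0.295 against 0.316 and 0.257 (log2 change -1.15, limma adjusted p = 0.966), the groups overlapping. The deubiquitinase Usp28 had 1.17 and 0.988 in shGm26917, against 0.860 and 0.875 in shNC, without overlap. Over the 7 tested the median log2 change was -0.21. The ubiquitin ligase component Fbxw7, which marks Myc for destruction, had 0.121 and 0.365 against 0.299 and 0.248, and its groups overlapped.

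The partners of Mga in PRC1.6 had a median log2 change of -0.29 over 8 tested genes, 6 of them below 0. L3mbtl2 had 0.657 and 1.21 in shGm26917, against 1.14 and 1.67 in shNC, Pcgf6, the subunit that defines the complex, 0.246 and 0.776 against 0.625 and 0.874, and Cbx3 0.525 and 0.772 against 0.715 and 1.02. In each of these the lowest value was that of shGm26917 replicate 1, and the groups overlapped. E2f6, a DNA-binding subunit, had 0.522 and 0.515 against 0.476 and 0.398, without overlap.

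The commonly cited Myc targets, genes of nucleolar function, metabolism and the cell cycle, had a median log2 change of 0.20 over 18 tested genes, 12 of them above 0. The groups did not overlap for 3 on the higher side and 1 on the lower side, where 16.1% and 14.8% of all genes tested did not. The lower one, named after its values were seen, was the cyclin Ccnd2, with 0.999 and 0.990 in shGm26917 and 1.07 and 1.25 in shNC. Ldha, which makes lactate, had a TE of 0.995 and 0.940 in shGm26917, against 0.610 and 0.726 in shNC (log2 change 0.54), the repair enzyme Apex1 3.67 and 2.59 against 2.33 and 1.74, and the spermidine synthase Srm 2.20 and 1.58 against 1.24 and 1.38, each with a limma adjusted p of 0.966. Nucleolin (Ncl) had 2.25 and 2.32 against 1.22 and 2.32. Of the Mlx and Mondo targets, Txnip, which limits glucose uptake, had 1.198 and 0.742 in shGm26917 and 0.444 and 0.546 in shNC, without overlap (log2 change 0.94, limma unadjusted p = 0.0679 and adjusted p = 0.966), while the fatty acid synthase Fasn had 1.580 and 1.595 against 1.91 and 2.27, without overlap on the lower side, and the carboxylase Acaca 0.616 and 0.433 against 0.329 and 0.452. Of the 33 listed genes with an ORF, 31 had all their ORFs at 0 in shGm26917 replicate 1, as the 4 member ORFs did.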

How the data were processed

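Ribosome profiling libraries of 2 shGm26917 and 2 shNC cultures were compared, with groups and replicate numbers from the labels. The study calls them biological replicates, and p-values measure only the spread between these libraries. Cells were treated with cycloheximide, lysates digested with RNase I and ribosomes pelleted through sucrose. The deposited TE is a ratio per gene and library, made by the authors from normalized Ribo-seq over normalized RNA-seq, with depth unknown. The deposited ORF signal was made by the authors with RiboCode calls, as reads per ORF over a size factor of each library. The build in the submitters' notes is mm10. For aligner and counter: not given in the sources used here. Columns of the authors' own comparisons (fold changes, p-values, classes) were not used.

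Values above 0 of the ORF table were whole multiples of the smallest (within 0.01 reads) in 100% of cases per library, so whole reads were recovered, with too few low values in shGm26917 replicate 1 for a separate check. TE was tested with limma on log2(TE), for genes above 0 in all 4 libraries. ORFs were tested with limma (trend) on log2(value + 1), for ORFs over 1 in at least 2 libraries, so fold changes understate low values. edgeR's quasi-likelihood test on the recovered reads called 0 of 3927 ORFs (4 at an unadjusted p under 0.05), as an alternative, and DESeq2 called 0 (350 at an unadjusted p under 0.05). Calls were made at an adjusted p under 0.05 (Benjamini-Hochberg, over all features). Procedures were tested on simulated data. The rule for named genes took all 8 members, up to 4 genes per list by smallest unadjusted p for TE, and the 3 genes closest to Myc. Fbxw7 and Ccnd2 were named after their values were seen. Some genes that the rule selects are not reported here. Promoter windows were RefSeq's (GRCm38.p6). Members and lists were chosen with earlier results of these data known. Versions were 1.42.0 for DESeq2, 4.0.16 for edgeR, 3.58.1 for limma and 4.3.3 for R.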

Additional observations from a re-analysis of the deposited data

How the results depend on the processing

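The TE results of the 8 members kept their direction in 55 of 56 fits under 7 other settings, and none was called in any (smallest limma adjusted p = 0.963). The exception was Myc, at -0.031 after quantile normalization. Direction could change only under quantile normalization, median centring or the inclusion of zeros. The other settings (a minimum mean TE, protein coding genes only, a variance trend and the replicate block) leave the log2 change itself as it was, so their agreement was fixed beforehand. With 1 library left out, its group's lone library being assumed to vary like the other group's, the log2 change ranged from -0.017 to 0.19 for Myc, from -0.72 to 0.048 for Max, from -0.27 to 0.86 for Mlx, from 0.0013 to 0.44 for Mnt, from 0.35 to 0.74 for Mxd1, from 0.14 to 0.48 for Mxd4, from -0.68 to 0.30 for Mxi1 and from -0.25 to 0.28 for Mga. For member ORFs, where the low ends are set by the 0 listed in shGm26917 replicate 1 alone and are no measured folds, these ranges were -10.5 to 0.80 for Myc, -7.45 to -0.11 for Mnt, -1.26 to 5.52 for Mxi1 and -2.83 to 0.80 for Mlx, which was also 0.84 after quantile normalization. Genes called for TE were 39 with zeros included on log2(TE + 0.01), where more genes were tested, and 0 to 255 with 1 library left out (255 without shGm26917 replicate 2). Those at a fold of 1.5 with unadjusted p of at most 0.05 were 237, with 537 when zeros were included and 77 to 3376 with 1 library left out. ORFs called were 14 among those above 0 in at least 3 libraries and 0 to 1982 with 1 library left out (1982 without shGm26917 replicate 2). At the fold of 1.5, 344 ORFs stood, with 46 and 9 among those above 0 in at least 3 and in all 4 libraries, 53 after quantile normalization, 4 and 8 by edgeR with and without its filter, and 257 to 2152 with 1 library left out. The cause was not tested. The replicate numbers did not pair the libraries (correlation of replicate deviations -0.043 for TE and -0.086 for ORFs). With the replicate block, 0 genes and 0 ORFs were called, and 274 genes stood at the fold of 1.5. No member ORF was above 0 in all 4 libraries, Mxi1 was not in at least 3, and edgeR's filter dropped Mxi1 and Mlx, so these have no value there. Without depth for TE, the precision of single ratios is unknown.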
